A study of Mus musculus with 6 samples.

Results

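The RNA of unperturbed prostate luminal cells is described here from the 3 wild-type (WT) libraries of a mouse series that holds 6 libraries in all. The 3 were chosen by their titles, which end in WT, and no measured value entered that choice. Luminal cells are the tall secretory epithelial cells that line the lumen of the prostatic glands, and they were isolated by fluorescence-activated cell sorting from C57BL/6 mice aged 4 months. The WT mice were littermates of animals that carry mouse Csf-1 behind the rat probasin promoter, and the transgenic libraries were not used. The sources used here do not name the sort markers, the lobes taken or the number of animals behind a library. The titles number the libraries 3, 5 and 8, each followed by 16, and these numbers are used as replicate names. Values are given for WT replicates 3, 5 and 8 in that order, followed where useful by the mean ± SD over the 3. With 1 group there is no contrast and no test, and the SD measures only the spread between these libraries, which may be technical.

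Luminal cells make most of the fluid protein of the prostate. A secreted protein is threaded into the endoplasmic reticulum (ER) through the Sec61 channel, trimmed by signal peptidase, glycosylated, folded by chaperones and disulfide isomerases, and carried to the Golgi in COPII vesicles. Lineage transcription factors such as HOXB13 and FOXA1 mark these cells. Keratins 8 and 18 form the intermediate filaments of simple epithelium and mark the luminal layer, while keratins 5 and 14 mark basal cells.

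Levels are in FPKM, a fragment count divided by transcript length and library size, summed over the transcripts of each gene symbol. FPKM is scaled to length, so genes can be set side by side. Each library listed 34535 transcripts of 24346 gene symbols. The number of genes above 1 FPKM was 9974, 9926 and 10089, and 9380 genes were above 1 FPKM in all 3 libraries. Between 46 and 58 genes lay above 1000 FPKM. Depth was not given as a fragment total. The read coverage that 1 FPKM stood for, a relative measure of depth, was 3.19, 3.50 and 2.72, so replicate 8 was the shallowest by this measure. Across the 10057 genes whose mean reached 1 FPKM, Pearson's r of log2(FPKM + 1) between pairs of libraries was 0.965 to 0.972 and Spearman's rho was 0.958 to 0.968. These are correlations across genes, which are not independent replicates. Between 96.9% and 97.8% of genes lay within 2-fold of each other in a pair, in FPKM + 1.

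Some of the most abundant prostatic genes have no usable value. Sbp (spermine-binding protein), its paralogue Sbpl and Spink1 (a secreted trypsin inhibitor) carried the status HIDATA in all 3 libraries. Cufflinks gives this status to a locus with more fragments than its limit, and the listed 0 is not a level. Sbp lies at 23941996 to 23945607 and Sbpl at 23953085 to 23955273 on chromosome 17 (mm10), neighbours on 1 chromosome. Amd1, which encodes the polyamine enzyme S-adenosylmethionine decarboxylase, and the overlapping copy Amd2 had the status FAIL in all 3 libraries. Amd1 was listed at 190, 275 and 216 FPKM and Amd2 at 0, so the split between the copies is not settled. The 6 transcripts of Tpm3, a tropomyosin gene, failed in replicate 8 alone. All shares of total FPKM below therefore leave out the RNA of at least 3 secretory genes.

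The transcriptome was concentrated in a few genes. The 5 most abundant genes held 24.3%, 17.9% and 19.9% of total FPKM. The 10 most abundant genes held 29.0%, 22.4% and 24.0% of total FPKM, and the 100 most abundant held 47.4%, 41.7% and 43.3%. It took 127, 190 and 175 genes to reach 50% of the total. Replicate 3 was the most concentrated library and replicate 5 the least. Of the 25 most abundant genes of each library, 19 were shared by all 3, and of the 100 most abundant, 81 were shared.

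The gene 9530002B09Rik (chromosome 4, 122689259 to 122705135, mm10), whose RefSeq synonyms include Vpp1, had the highest mean. It stood at 30162, 42929 and 46578 FPKM, which was 5.90%, 8.55% and 8.44% of all FPKM. Replicate 3 was the low library, and there the gene ranked 2 instead of 1. Defb50, a beta-defensin gene (chromosome 8, 21823539 to 21831296), was at 45322, 19720 and 35929 FPKM. It held 8.87%, 3.93% and 6.51% of the total and ranked 1, 2 and 2. Pbsn, which encodes probasin, an androgen-regulated lipocalin secreted by the mouse prostate (chromosome X, 77837898 to 77853500), was at 25228, 5909 and 8668 FPKM. The Pbsn level in replicate 3 was the high value, with a CV (SD over mean) of 78.8% over the 3 libraries. Msmb, the beta-microseminoprotein gene (chromosome 14, 32142023 to 32158326), was at 15696, 6722 and 9012 FPKM, again highest in replicate 3 and lowest in replicate 5. Together these 4 genes held 22.8%, 15.0% and 18.2% of total FPKM. The 95% interval that the authors' tables give for Pbsn was 25152 to 25303 FPKM in replicate 3 and 5874 to 5943 in replicate 5. The libraries thus lay much farther apart than the intervals, which cover the estimate within 1 library and not the spread between libraries.

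The promoter windows of Pbsn and 9530002B09Rik are printed because these are abundant genes, with replicate 3 the highest library for Pbsn and the lowest for 9530002B09Rik, and because the series' transgene uses a probasin promoter, of rat. Each is a RefSeq window of GRCm38.p6, the assembly also called mm10, from 250 bases before to 50 bases after the start site on the gene's strand. Pbsn spans chrX:77853451-77853750 on the minus strand and 9530002B09Rik spans chr4:122689009-122689308 on the plus strand. Capitals mark the TATA box letters TATAAA and the letters AGAACA or TGTTCT, which are the steroid receptor hexamer read on either strand.
Pbsn: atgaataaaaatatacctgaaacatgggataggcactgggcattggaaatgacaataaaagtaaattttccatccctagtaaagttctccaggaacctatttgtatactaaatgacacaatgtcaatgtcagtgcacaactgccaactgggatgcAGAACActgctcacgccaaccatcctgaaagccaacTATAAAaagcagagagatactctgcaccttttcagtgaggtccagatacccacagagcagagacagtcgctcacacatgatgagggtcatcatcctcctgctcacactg
9530002B09Rik: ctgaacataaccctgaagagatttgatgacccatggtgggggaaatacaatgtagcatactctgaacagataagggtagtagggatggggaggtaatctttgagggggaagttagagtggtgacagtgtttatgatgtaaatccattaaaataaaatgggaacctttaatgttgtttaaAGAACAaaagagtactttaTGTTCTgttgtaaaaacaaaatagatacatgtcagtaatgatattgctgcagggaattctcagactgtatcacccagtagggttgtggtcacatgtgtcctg
In Pbsn, TATAAA began 59 bases and AGAACA 95 bases before the RefSeq start site. In 9530002B09Rik, AGAACA began 71 bases and TGTTCT 52 bases before it, and TATAAA was not found in either direction. A match is a description of letters and not a binding site. Of 17168 genes in the tables with a window and a transcript of at least 300 bases, 16.7% held AGAACA or TGTTCT and 3.34% held TATAAA on the gene's strand in the last 50 bases before the start site. Of the 18 genes with a window among the 25 most abundant of that length, 6 held AGAACA or TGTTCT and 0 held TATAAA in those 50 bases.

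**Figure D1:**
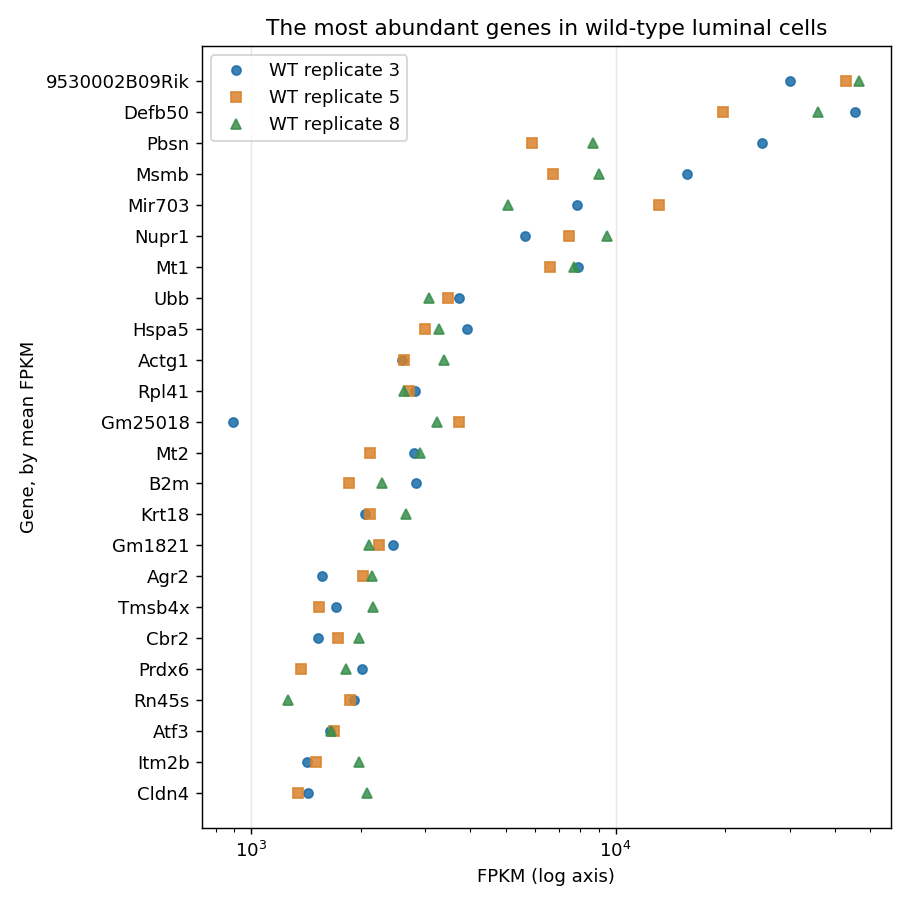
FPKM on a log axis for the most abundant genes by mean, with 1 point per WT library. Defb50, Pbsn and Msmb were highest in replicate 3 and lowest in replicate 5, while 9530002B09Rik was lowest in replicate 3.

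The rest of the 25 most abundant genes were of several kinds. Nupr1, a stress-induced nuclear protein gene, was at 5651, 7429 and 9480 FPKM, and the metallothionein gene Mt1, whose protein binds zinc, was at 7907, 6621 and 7673 FPKM. Mt2 followed at 2792, 2125 and 2902 FPKM. Hspa5, the gene of the ER chaperone BiP, was at 3922, 3010 and 3288 FPKM and ranked 8, 10 and 9. The polyubiquitin gene Ubb had a mean of 3430 ± 323 FPKM. Gm1821, at 2268 ± 173 FPKM, is a ubiquitin B pseudogene per RefSeq, and 1 of its listed loci overlaps Ubb, so reads may be split between them. The cytoskeletal genes Actg1 and Tmsb4x and the ribosomal protein gene Rpl41 had means of 2864, 1805 and 2716 FPKM. Agr2, an ER disulfide isomerase of secretory epithelium, was at 1569, 2025 and 2147 FPKM. Atf3, a stress-induced transcription factor, was at 1642, 1694 and 1657 FPKM, with a CV of 1.60%. B2m, Cbr2, Prdx6, Itm2b, Krt18 and Cldn4 were further protein-coding genes of this set, with means of 1618 to 2326 FPKM. Rn45s, the ribosomal RNA precursor, was at 1917, 1867 and 1263 FPKM.

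Short RNAs need care on this scale, because a few fragments on a transcript of about 100 bases give a large FPKM. Mir703, listed with 109 bases, was at 7852, 13123 and 5059 FPKM, and Gm25018, a 5S ribosomal RNA gene of 121 bases, was at 895, 3718 and 3234 FPKM. Mir1938 was at 2462 FPKM in replicate 8 and was listed at 0 in the others. The 10 most variable genes averaging at least 50 FPKM were all short. Besides Mir1938 they were Mirlet7d, Mir6516, Mir6385, Mir1192, Mir8112, Snora75, Snora3, Gm25212 and Gm23284. The 1348 genes whose longest transcript was under 300 bases held 2.84%, 5.23% and 3.14% of total FPKM. Their median CV, over the 53 with a mean of at least 1 FPKM, was 87.4%, against 16.2% for longer genes. Protein-coding genes, by RefSeq biotype, held 92.6% to 95.1% of total FPKM, lowest in replicate 5.

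Secretory genes held the largest share of 9 gene classes compared, through Defb50, Pbsn and Msmb, and varied more between libraries than genes in general. Their median CV was 2.37 times that of all genes and that of keratin genes 1.58 times, but this order turned without replicate 3 (1.69 against 2.03) and with no filter on low values (1.92 against 2.56). The classes were lists or symbol families, and a gene may stand in more than 1 of them. The lists were chosen with earlier results of these data known, so the rank of the secretory list is a description and not a test. The 55 listed secretory products held 18.7%, 7.93% and 11.3% of total FPKM (12.7 ± 5.54, SD, n = 3). Of these genes, 33 had a mean of at least 1 FPKM, 14 had a mean of at least 100 FPKM and 10 were listed at 0 in every library, among them the 3 with HIDATA status. Defb50, Pbsn and Msmb alone held 16.9%, 6.44% and 9.71%. With these 3 left out, the other 52 members held 1.88%, 1.49% and 1.56%. The class share thus followed 3 genes. The list does not hold 9530002B09Rik.

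Among secreted protease inhibitors, Wfdc3, a WAP-domain gene, was at 2347, 975 and 1178 FPKM. Spink5, a serine protease inhibitor gene, was at 374, 600 and 360 FPKM, with replicate 5 high. Cst3, which encodes cystatin C, was at 977, 566 and 701 FPKM. Of the 16 members of this role, 10 had a mean of at least 1 FPKM and 7 a mean above 10 FPKM. Timp2, a metalloproteinase inhibitor gene, was at 48.0, 66.2 and 74.1 FPKM and Spink8 at 72.1, 19.0 and 37.4 FPKM, while Slpi was at 0.473, 0.431 and 0.389 FPKM and Wfdc15a was listed at 0. Among binding and defence proteins, the beta-defensin gene Defb1 was at 1967, 628 and 1069 FPKM and Azgp1, the zinc-alpha-2-glycoprotein gene, was at 793, 1032 and 1200 FPKM. Nucb2 was at 496, 660 and 742 FPKM and Clu, the clusterin gene, at 202, 281 and 287 FPKM. The secreted enzymes were lower. Fuca1, a lysosomal and secreted fucosidase gene, was highest at 182, 173 and 225 FPKM, followed by Gpx3 at 124, 124 and 138 FPKM. Acpp, the prostatic acid phosphatase gene, was at 1.36, 2.17 and 2.36 FPKM. Of 28 kallikrein genes, 1 had a mean of at least 1 FPKM, Klk1b24 at 3.05, 0.451 and 1.41 FPKM, and 16 were listed at 0 in all libraries. Tgm4, a transglutaminase secreted by the prostate, was at 68.1, 3.96 and 1.11 FPKM, so that its level above 10 FPKM rests on replicate 3. Of 24 secretoglobin genes, 12 had a mean of at least 1 FPKM. The family held 0.154%, 0.299% and 0.358% of total FPKM, and Scgb2b15 led it at 591, 1190 and 1576 FPKM, lowest in replicate 3.

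**Figure D2:**
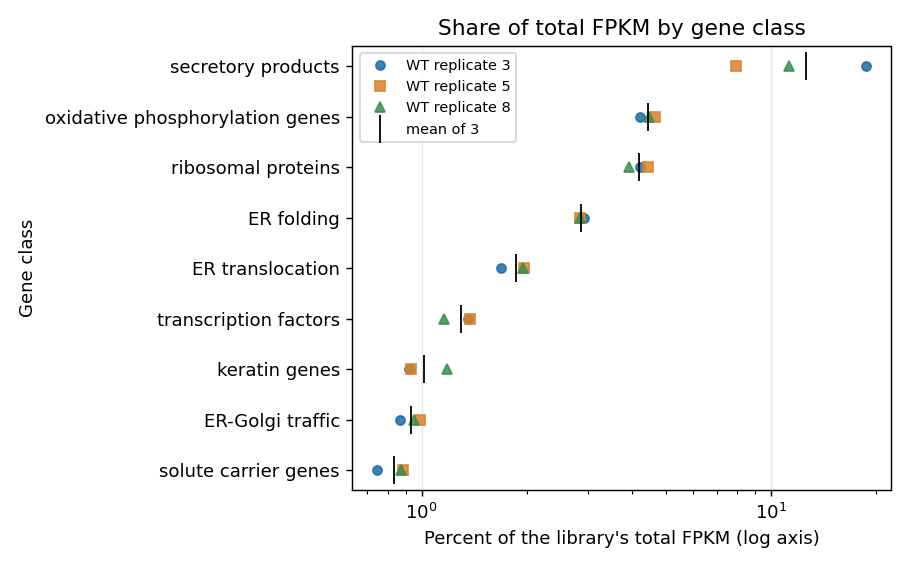
Percent of each library's total FPKM in 9 gene classes on a log axis, with 1 point per WT library and a bar at the mean. Secretory products ranged from 7.93% to 18.7%, while ER folding genes stayed between 2.84% and 2.91%.

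Genes of the secretory pathway were high. All 32 listed ER folding genes were above 1 FPKM in every library, with a median of 218 FPKM. The median was 8.998 FPKM over the 10057 genes averaging at least 1 FPKM. It was 0.225 FPKM over all 24346 genes, of which 7801 were listed at 0 in every library. The ER folding genes held 2.91%, 2.84% and 2.84% of total FPKM. After Hspa5, the chaperone genes Ppib (872, 937 and 1061 FPKM), Calr (879, 806 and 931 FPKM) and Hsp90b1 (855, 696 and 730 FPKM) came next in that role. Each overlaps its neighbour in this order, while Ppib lay above Hsp90b1 throughout. Calr was also above Hsp90b1 within each library. The lowest of that role was Uggt1, the glucosyltransferase that senses misfolded glycoproteins, at 29.5, 28.3 and 31.4 FPKM. Among disulfide isomerases and oxidases, Agr2 was followed by P4hb at 900, 1158 and 1322 FPKM, Pdia6 at 1056, 885 and 1028 FPKM and Pdia3 at 649, 611 and 576 FPKM. The oxidase genes Ero1l and Ero1lb, which reoxidise the isomerases, were at 7.46 to 8.67 and 12.2 to 15.6 FPKM. The median CV of the ER folding list was 9.71%, which was 0.596 times that of all genes averaging at least 1 FPKM. Over all genes the median CV was 20.1% at 1 to 10 FPKM, 13.7% at 10 to 100 FPKM, 11.2% at 100 to 1000 FPKM and 17.1% at 1000 FPKM and above. The lists for translocation and glycosylation and for ER to Golgi traffic, described next, had median CVs of 12.2% and 12.0%. Both lay between the 13.7% of genes at 10 to 100 FPKM and the 11.2% at 100 to 1000 FPKM. Of their genes, 22 of 34 and 16 of 33 had a mean of at least 100 FPKM.

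All 34 translocation and glycosylation genes were above 1 FPKM in every library, and they held 1.69%, 1.97% and 1.95% of total FPKM. Sec11c, a catalytic subunit gene of signal peptidase, was at 1252, 1451 and 1603 FPKM, above its paralogue Sec11a at 155, 174 and 186 FPKM in each library. Ssr4, of the translocon-associated complex, was at 1065, 1238 and 1377 FPKM. Of the Sec61 channel, the beta subunit gene Sec61b was at 669, 736 and 718 FPKM and the pore subunit gene Sec61a1 at 124, 202 and 200 FPKM. In the oligosaccharyl transferase, which attaches N-glycans, Tmem258 (776, 783 and 894 FPKM), Krtcap2 (653, 820 and 899 FPKM) and Dad1 (580, 723 and 784 FPKM) overlapped as the highest. Dad1 was below Tmem258 and Krtcap2 in every library. The catalytic subunit genes Stt3a and Stt3b were at 151 to 183 and 55.7 to 71.2 FPKM. All 11 genes of this complex were highest in replicate 8, as were 5180 of the 10057 genes averaging at least 1 FPKM.

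ER to Golgi traffic held 0.869%, 0.988% and 0.950% of total FPKM, with 33 of 33 genes above 1 FPKM in every library. The cargo receptor gene Tmed3 was at 644, 601 and 680 FPKM and Tmed2 at 400, 420 and 409 FPKM. In the COPI coat, which returns cargo to the ER, Copz2 was at 434, 540 and 546 FPKM and its paralogue Copz1 at 104, 110 and 117 FPKM. In the COPII coat, which carries cargo forward, Sar1b was at 179, 203 and 238 FPKM and Sec13 at 125, 154 and 163 FPKM. Of the cargo-binding Sec24 genes, Sec24d was at 41.2, 31.0 and 38.4 FPKM and Sec24c reached 35.6 FPKM, both above Sec24a and Sec24b in every library, at 4.74 to 6.31 and 2.53 to 3.20 FPKM.

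Transcripts of the ER stress response were present in these cells. Herpud1, a membrane protein of ER-associated degradation, was at 1329, 1288 and 1061 FPKM. The transcription factor genes Xbp1, Atf4 and Ddit3 were at 283, 302 and 302 FPKM, at 380, 339 and 329 FPKM, and at 289, 206 and 214 FPKM. The sensor genes were lower, with Eif2ak3 (PERK) at 20.4, 20.2 and 21.6 FPKM, Atf6 at 12.3, 10.4 and 12.0 FPKM and Ern1 (IRE1 alpha) at 6.26, 2.86 and 4.09 FPKM. Ern2 did not reach 0.05 FPKM in any library. Spliced Xbp1 cannot be read from these gene sums.

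Of the prostate luminal lineage factors, Hoxb13 was highest at 327, 524 and 534 FPKM. Of 39 Hox genes it alone had a mean of at least 100 FPKM, followed within the family by Hoxa10 at 8.33, 6.75 and 7.09 FPKM. Xbp1 came next, and then Sox9 (79.4, 72.2 and 99.2 FPKM) and Foxa1 (75.7, 77.4 and 91.8 FPKM), whose ranges overlap. Spdef, an ETS factor of secretory epithelium, was at 34.7, 59.9 and 55.8 FPKM, and Creb3l4, an ER-bound factor of the prostate, at 35.0, 45.3 and 51.3 FPKM. Gata3 and Tbx3 were between 10.5 and 19.0 FPKM. Gata2, a GATA factor, was at 8.26, 1.84 and 5.39 FPKM, with replicate 5 low. Trps1 stayed below 1 FPKM. The 11 of these 12 genes averaging at least 1 FPKM had a median CV of 15.7%, close to the 16.3% of all such genes.

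Among epithelial factors, Klf5, Ehf and Elf3 lay together between 56.5 and 85.6 FPKM and could not be ordered beyond their spread. Klf4 was at 29.5, 17.8 and 14.4 FPKM. Elf5, Hnf4a and Cdx2, factors of mammary, liver and intestinal epithelium, were between 0 and 0.314 FPKM. Among nuclear receptors, Nr4a1 was at 186, 125 and 131 FPKM and Nr2f6 at 36.3, 43.8 and 50.1 FPKM, while the glucocorticoid receptor gene Nr3c1 was at 2.16, 1.99 and 2.16 FPKM. Esr1 and Esr2 (estrogen receptors) were at 1.12 to 1.89 and 1.47 to 1.81 FPKM. Of 10 basal, stem and neural factors, Myc alone had a mean of at least 1 FPKM, at 151, 116 and 121 FPKM. Trp63, the basal cell factor p63, was at 0.364, 0 and 0.0923 FPKM.

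Immediate early factors, which many cells induce within minutes of stress or dissociation, were among the most abundant of the 69 listed transcription factors. Besides Atf3, Fos was at 737, 668 and 510 FPKM, Jun at 625, 597 and 432 FPKM, Junb at 551, 554 and 525 FPKM, Egr1 at 452, 341 and 266 FPKM and Ier2 at 574, 622 and 435 FPKM. The 14 listed genes held 1.03%, 1.01% and 0.802% of total FPKM, out of 1.36%, 1.37% and 1.16% for all 69 factors. Of the 13 with a mean of at least 1 FPKM, 9 were highest in replicate 3 and 1 in replicate 8, or 69.2% and 7.69%, beside 20.5% and 51.5% of all 10057 genes of that level. Whether these levels were present in the tissue before sorting was not tested. The heat-shock genes Hspa1a and Hspa1b were at 463, 662 and 376 FPKM and at 584, 823 and 450 FPKM, both highest in replicate 5 and lowest in replicate 8. They are near-identical copies, so the split between them is uncertain.

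Keratin RNA was almost wholly that of simple epithelium. Krt18 was at 2055, 2115 and 2666 FPKM, Krt19 at 1279, 1374 and 1922 FPKM and Krt8 at 1235, 1050 and 1721 FPKM, each highest in replicate 8. Of the 13 keratin genes averaging at least 1 FPKM, 61.5% were highest there, beside 51.5% of all genes of that level. Krt18 was above Krt19, and Krt19 above Krt8, in every library, though the ranges of Krt8 and Krt19 overlap. These 3 genes held 96.9%, 96.7% and 96.4% of the FPKM of all 52 keratin genes. Krt23 followed at 82.0, 67.8 and 143 FPKM. The basal keratins were lower, with Krt15 at 16.1, 27.9 and 25.9 FPKM, Krt17 at 13.1, 18.3 and 22.2 FPKM, Krt14 at 8.09, 9.83 and 9.03 FPKM and Krt5 at 2.33, 2.19 and 3.44 FPKM. Krt7 was at 8.68, 13.4 and 19.7 FPKM and Krt4 at 5.57, 6.16 and 5.80 FPKM. Of the 52 genes, 13 had a mean of at least 1 FPKM and 21 were listed at 0 in all libraries. TATAAA stood in the last 50 bases before the start site in 15 of 35 keratin genes with a window, or 42.9%. It stood there in 10 of 41 secretory products, or 24.4%, beside 3.34% of all genes with a window. Among genes averaging at least 1 FPKM the share was 1.61%. The abundant keratin genes Krt18 and Krt8 lacked it there, and Krt19 had no window. The listed secretory products with a window among the 100 most abundant genes, Pbsn, Agr2, Wfdc3, Azgp1, Cst3 and Nucb2, lacked it too. Defb50 and Msmb had no window. The abundant secretoglobin gene Scgb2b15, which is not on that list, held TATAAA there.

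**Figure D3:**
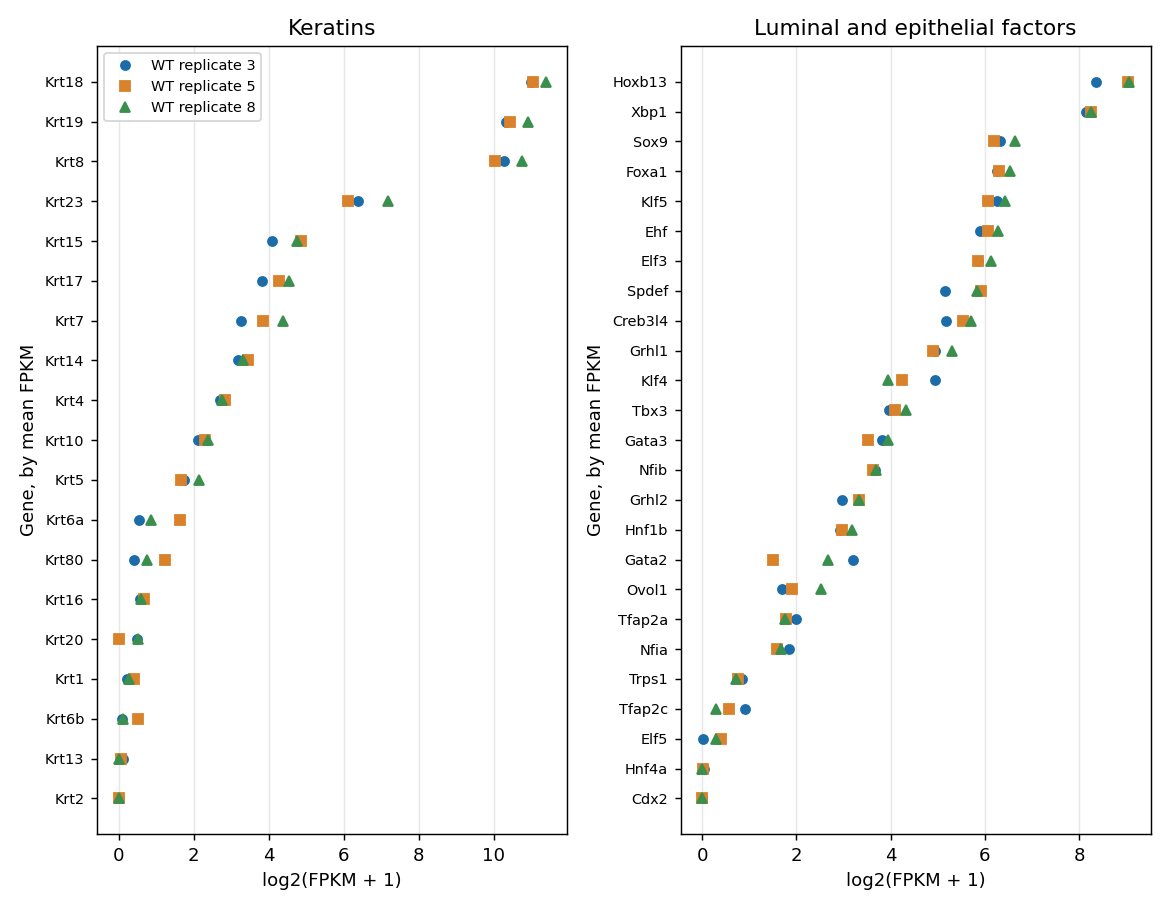
log2(FPKM + 1) of 19 keratins (left) and of luminal lineage and epithelial transcription factors (right), with 1 point per WT library. Krt18, Krt19 and Krt8 lay far above the other keratins, and Hoxb13 and Xbp1 led the factors.

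Transporter RNA was spread over many genes. Of 373 solute carrier genes, 175 had a mean of at least 1 FPKM, 10 had a mean of at least 100 FPKM and 79 were listed at 0 in all libraries. Of all 24346 genes, these counts were 10057, 762 and 7801. The solute carrier family held 0.745%, 0.888% and 0.872% of total FPKM. Slc12a2, which encodes the sodium, potassium and chloride cotransporter NKCC1 of secretory epithelia, was highest at 356, 379 and 392 FPKM. It overlapped in range with Slc25a5, a mitochondrial ADP/ATP carrier gene, at 282, 358 and 349 FPKM, but was the higher in every library. Slc39a7 (zinc release from the ER), Slc1a5 (glutamine uptake) and Slc25a3 (mitochondrial phosphate) followed at 173 to 214, 163 to 214 and 168 to 210 FPKM.

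Zinc and citrate are the characteristic solutes of prostatic fluid. Of 24 zinc transporter genes, 18 had a mean of at least 1 FPKM, and Slc39a7 alone had one of at least 100. Slc39a11 was at 30.7, 48.0 and 52.3 FPKM, and the cell surface importer gene Slc39a1 was at 3.85, 5.22 and 3.78 FPKM. Slc30a2, a vesicular zinc exporter gene, was at 14.3, 2.76 and 3.88 FPKM, with replicate 3 high. The mitochondrial citrate carrier gene Slc25a1 was at 34.9, 52.3 and 52.1 FPKM. The plasma membrane citrate carrier genes Slc13a2, Slc13a3 and Slc13a5 and the aspartate importer gene Slc1a1 did not reach 0.05 FPKM in any library. The citrate synthase gene Cs was at 35.3, 42.9 and 47.9 FPKM. Of the polyamine genes with usable values, the ornithine decarboxylase gene Odc1 was at 64.0, 81.4 and 78.5 FPKM, the spermidine synthase gene Srm at 110, 157 and 140 FPKM and the spermine synthase gene Sms at 2.38, 3.43 and 4.76 FPKM.

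For other solutes, Slc3a2, the heavy chain gene of several amino acid transporters, and Slc7a4, of the Slc7 amino acid transporter family, were at 86.7, 83.3 and 111 FPKM and at 80.8, 108 and 117 FPKM. The glucose transporter gene Slc2a1 was at 58.6, 75.1 and 98.9 FPKM. Slc35b1, of the Slc35 family that holds the nucleotide sugar transporters, was at 134, 157 and 177 FPKM. Of the sodium pump, Atp1b1 was at 183, 224 and 261 FPKM, and the pump regulator gene Fxyd3 was at 710, 673 and 730 FPKM. Atp6v1f and Atp6v0e led the proton pump genes at 297, 346 and 344 FPKM and at 267, 290 and 317 FPKM. Among channels, Kcnk3, an acid-sensitive potassium channel gene, was at 104, 172 and 201 FPKM and Trpv6, an epithelial calcium channel gene, at 40.7, 84.4 and 79.6 FPKM. The cold receptor gene Trpm8 was listed at 0 in every library, and Cftr did not reach 0.1 FPKM.

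The libraries were checked against marker lists for the labelled cell type and for other cells a sort could hold. Of 12 luminal epithelial markers, 11 had a mean of at least 1 FPKM, among them Epcam at 631, 612 and 711 FPKM and Cldn4 at 1429, 1345 and 2078 FPKM. Folh1, the prostate-specific membrane antigen gene, was at 0, 0.104 and 0 FPKM. The 12 genes summed to 6676, 6639 and 9049 FPKM. The 10 basal markers summed to 61.2, 73.7 and 78.3 FPKM, and the 8 markers of progenitor-like luminal cells to 274, 409 and 442 FPKM, of which Clu gave 202, 281 and 287 FPKM. The 11 stroma markers summed to 103, 103 and 114 FPKM. Without the matrix gene Dcn, which was at 95.6, 88.2 and 102 FPKM, the stroma sum was 7.09, 14.5 and 12.4 FPKM. The 8 lymphocyte markers summed to 0.446, 1.18 and 0.847 FPKM, with Ms4a1 listed at 0 throughout, and the 6 endothelial markers to 2.60, 1.14 and 1.28 FPKM. Neuroendocrine markers summed to 3.73 to 5.79 FPKM. Seminal vesicle markers summed to 1.78 to 2.63 FPKM, almost all of it Ceacam10 at 1.63 to 2.63 FPKM.

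In bulk RNA, fewer cells of a type and less RNA per cell cannot be told apart, which holds for each of these sums. The 14 macrophage markers summed to 27.9, 38.1 and 136 FPKM. All 8 of them with a mean of at least 1 FPKM were highest in replicate 8 and lay at least 2-fold apart between libraries, beside 51.5% and 11.2% of all 10057 genes of that level. Of these 8, 6 were above 1 FPKM in every library. The rest did not exceed 1 FPKM in at least 1 library, so replicate 8 helped them pass the level. Markers with a lower mean are not in this count. Lyz2 was at 6.69, 10.1 and 61.6 FPKM and C1qb at 1.88, 4.31 and 13.7 FPKM. Csf1r, the macrophage growth factor receptor gene, stayed between 0.265 and 0.803 FPKM, and Aif1 was listed at 0 in replicate 3. The 5 listed erythroid genes in the tables summed to 435, 94.2 and 468 FPKM. The list does not hold the globin gene Hbb-b2, which was at 94.3, 19.0 and 85.7 FPKM. Hba-a1, an alpha globin gene, was at 294, 63.3 and 333 FPKM, with replicate 5 low, and its near-identical copy Hba-a2 was listed at 0, so these copies cannot be told apart. Of 10 cell division genes, Pcna was highest at 18.5, 20.3 and 18.5 FPKM, and Mki67 was at 0.133, 0.0463 and 0.382 FPKM.

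**Figure D4:**
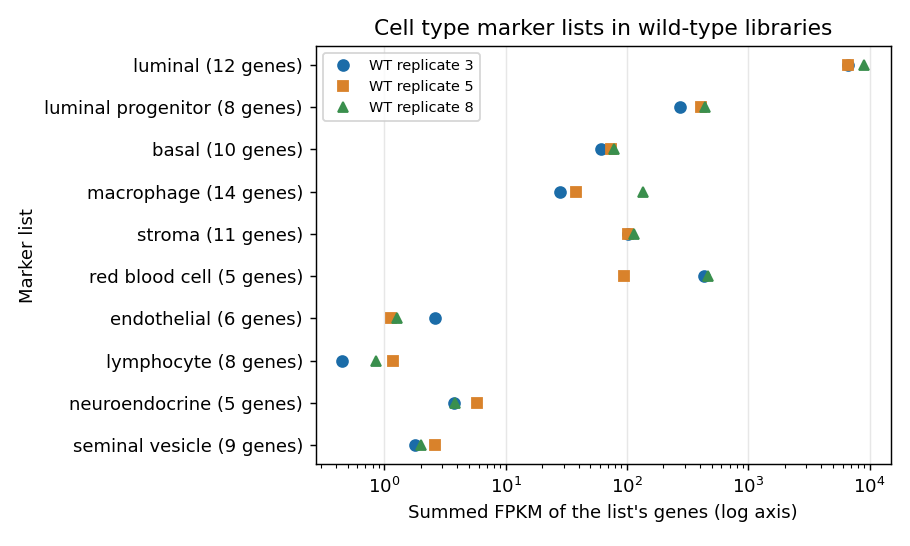
Summed FPKM on a log axis of 10 marker lists, with 1 point per WT library and the number of genes in each list beside its name. The luminal sum was 6639 to 9049 FPKM. The macrophage sum was highest in replicate 8, and the erythroid sum was lowest in replicate 5.

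The spread between libraries had its own pattern among abundant genes. Of 1463 genes averaging at least 50 FPKM, a transcript of at least 300 bases and no failed status, 38 differed at least 2-fold between the highest and the lowest library. Of these 38, 13 were highest in replicate 3 and lowest in replicate 5, or 34.2%, beside 7.11% of all 1463 genes. They were Defb50, Pbsn, Msmb, Wfdc3, Defb1, Rnase1, Sprr1a, Pcp4, AY761184, Krtap17-1, Fhl2 and the globin genes Hbb-b1 and Hbb-b2. Rnase1, a secreted ribonuclease gene, was at 552, 139 and 213 FPKM, and Pcp4 at 185, 60.5 and 69.5 FPKM. Hbb-b1, which marks red blood cells, was at 139, 29.5 and 131 FPKM, so in replicate 8 it lay close to replicate 3, whereas Pbsn in replicate 8 lay close to replicate 5. The secretory genes among the 13 were not alike in this. Defb50, at 45322, 19720 and 35929 FPKM, lay nearer to replicate 3 in replicate 8.

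Another 16 of the 38 were lowest in replicate 3, with 9 highest in replicate 8 and 7 in replicate 5. These 16 were 42.1% of the 38, beside 68.4% of all 1463 genes that were lowest in replicate 3. They included Scgb2b15, Scgb2b7 (58.6, 133 and 124 FPKM), Scgb2b27 (40.8, 54.8 and 132 FPKM), Trpv6, the gap junction gene Gjb1 (30.4, 61.8 and 60.7 FPKM) and Pigr, the receptor gene that carries antibodies into secretions (216, 466 and 384 FPKM). The order of highest in replicate 8 and lowest in replicate 3 held for 23.7% of the 38 and for 52.5% of all 1463 genes. Median-ratio scaling factors of the libraries were 0.940, 1.003 and 1.074, so FPKM ran higher over genes in general in replicate 8. Apoe, a lipid carrier gene that macrophages also express, was at 33.9, 41.0 and 79.7 FPKM, and its level moved with the macrophage markers above. The part of other cells in it was not tested. The co-chaperone genes Dnajb1 (190, 250 and 105 FPKM), Hsph1 (59.6, 70.8 and 35.1 FPKM) and Dnaja4 (61.5, 68.8 and 26.0 FPKM) were lowest in replicate 8, as were Lars2 and the nuclear RNA Malat1 at 1213, 928 and 408 FPKM.

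**Figure D5:**
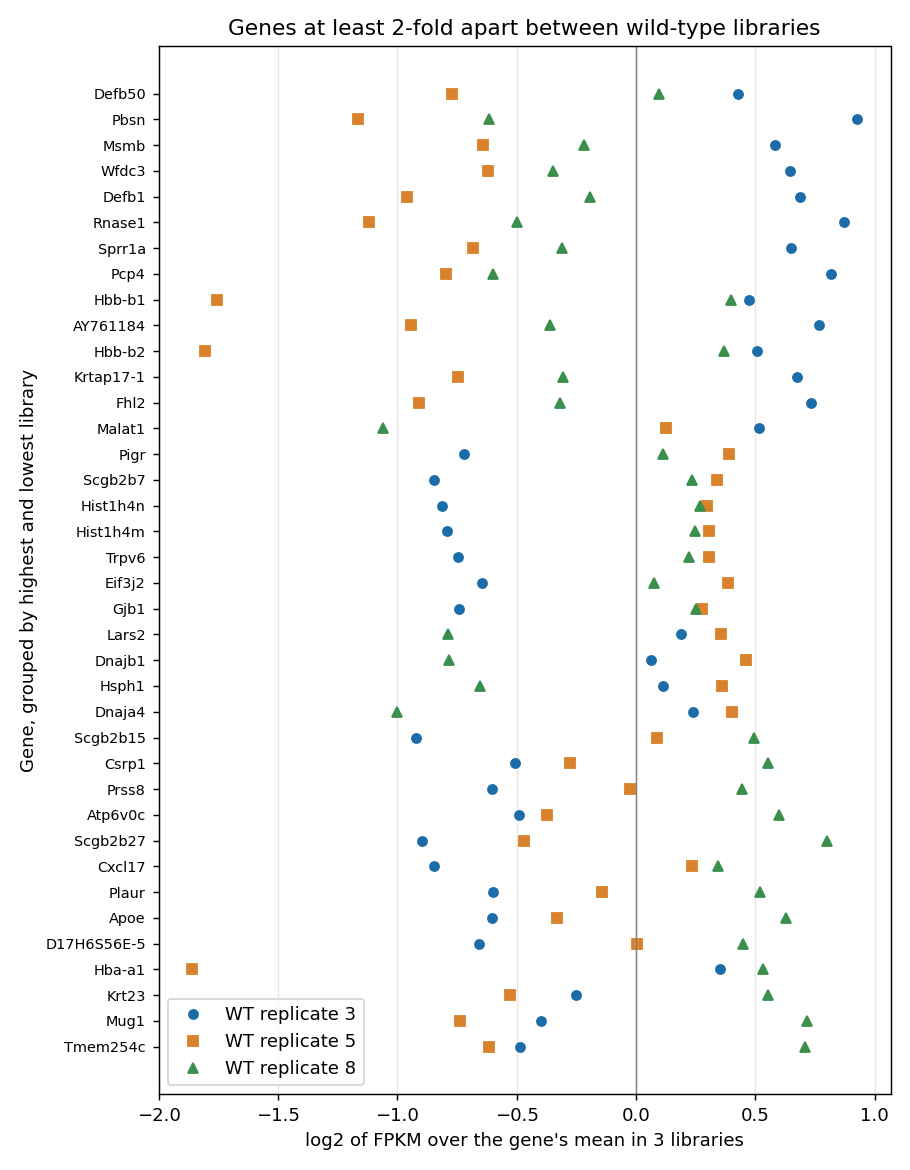
log2 of FPKM over each gene's mean for the 38 genes at least 2-fold apart between WT libraries, grouped by their highest and lowest library. The first 13 genes from the top were highest in replicate 3 and lowest in replicate 5, and 16 genes were lowest in replicate 3.

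At the other end, the 10 steadiest genes of at least 50 FPKM were Rps9, Anxa6, Uqcrh, Ppp1r15a, Arrdc1, Golph3, Ifitm3, Ndufa8, Ubxn4 and Mrpl14. They were picked by the smallest SD of log2(FPKM + 1) without scaling, and the choice was not repeated with the scaling factors given above. Rps9, a ribosomal protein gene, was at 504, 502 and 503 FPKM, Anxa6 at 69.7, 69.3 and 69.4 FPKM and Uqcrh, of respiratory complex III, at 413, 405 and 412 FPKM. As a share of total FPKM, Rps9 was less even, at 0.0986%, 0.0999% and 0.0910%. The eIF2 alpha phosphatase subunit gene Ppp1r15a, itself stress-induced, was at 95.8, 97.3 and 96.1 FPKM. As a class, 85 ribosomal protein genes had a median CV of 6.38% over the 82 averaging at least 1 FPKM and held 4.22%, 4.45% and 3.92% of total FPKM. The 84 oxidative phosphorylation genes had one of 9.10% over 76 genes and held 4.22%, 4.67% and 4.49%. Secretory products had a median CV of 38.6% over 33 genes, keratins 25.8% over 13, solute carriers 18.3% over 175 and listed transcription factors 15.9% over 49, beside 16.3% for all 10057 genes. Among 1139 genes with 1 transcript and a mean of at least 50 FPKM, 1012 had at least 1 pair of libraries whose 95% intervals in the authors' tables did not overlap, or 88.8%. Of 1382 genes with several transcripts and a mean of at least 10 FPKM, 1214 had the same highest transcript in all 3 libraries.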

How the data were processed

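Per the labels' protocols, cDNA of sorted luminal cells came from SMART-Seq v4 with random and oligo-dT primers. For the libraries they mention Nextera XT and also a TruSeq DNA kit. Neither kit marks strand, so overlapping antisense genes are not separated. The tools named in the submitters' processing notes are bcl2fastq 1.8.3, TopHat and Cufflinks, and the build is mm10. The authors deposited 1 table per library with FPKM and its interval per transcript, per the file headers. The deposited coverage signal was checked to be a constant times FPKM within each table.

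FPKM was summed per gene symbol with no further scaling, in Python 3.11.15 with pandas 2.3.3 and numpy 2.4.6. Failed rows kept their listed value. Starts in the tables were raised by 1 to count from 1. RefSeq biotypes and promoters were matched by accession (24048 genes), symbol (201) or synonym (50), and 47 had no match. The 22 lists held 488 genes, of which 487 were in the tables, and 20 families were set by symbol pattern. Members and lists were chosen with earlier results of these data known. Genes were named by rule: the 25 most abundant, the 5 highest of each role or family, the 10 most and least variable of at least 50 FPKM, failed rows, keratins, lineage factors and markers. The variable genes are given among those of at least 300 bases, a limit set after their values were seen, because the 10 most variable were all short. Other listed members, the heat-shock genes and the genes named among the 38 that differed 2-fold were also chosen with values seen. Some listed genes are not reported here or drawn in the plots. No test was made. The scripts were tested on simulated data.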

Additional observations from a re-analysis of the deposited data

How the results depend on the processing

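No paired analysis was possible because only the wild-type libraries of 1 group were described, with no contrast and no test. Each description was recomputed under other choices. Of the recomputed summary values, 151 stayed within a set margin and 41 moved beyond it. For shares the margin was the SD between libraries. For median CVs and their ratios it was the SD over the values with 1 library left out, which are also among the values judged. Gene counts had a fold margin wider than their SD. With 0.5 FPKM as the limit, 11010 genes in place of 9996 (SD 83.8) stayed within it. The summary values have no sign that could turn, but some class ratios crossed 1 and the order of classes by spread changed, as given below.

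With 5 FPKM as the limit, 6590 genes were detected in place of 9996. The ER folding share of 2.86% became 2.95% with the highest transcript per gene and 2.98% without genes under 300 bases. The median CV over all genes, 16.3%, was 13.4% with a mean of at least 10 FPKM and 25.7% with no filter, and 11.6% to 16.0% when 1 library was left out.

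The median CV of a class over that of all genes depended on these choices, and the cause was not tested. With median-ratio scaling it was 2.88 for secretory products, 0.534 for ER translocation, 0.510 for ER-Golgi traffic, 0.587 for ribosomal proteins, 0.368 for oxidative phosphorylation and 0.999 for solute carriers. Rescaling each library to the same total gave 0.436 for ER folding, 0.563 for ER translocation and 0.525 for ribosomal proteins. A mean of at least 10 FPKM gave 0.723 for ER folding, 0.912 for ER translocation, 0.890 for ER-Golgi traffic and 1.20 for transcription factors. No filter gave 1.92 for secretory products, 0.378 for ER folding, 0.477 for ER translocation, 0.467 for ER-Golgi traffic, 0.262 for ribosomal proteins, 0.374 for oxidative phosphorylation, 2.56 for keratins, 1.01 for solute carriers and 0.744 for transcription factors. The SD of log2(FPKM + 1) gave 2.94 for secretory products, 0.688 for ER folding and 0.863 for ER translocation.

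With 1 library left out, these ratios were 1.69 to 2.48 for secretory products, 0.496 to 0.639 for ER folding, 0.629 to 0.756 for ER translocation, 0.695 to 0.948 for ER-Golgi traffic and 0.356 to 0.507 for ribosomal proteins. They were 0.408 to 0.687 for oxidative phosphorylation, 1.06 to 2.03 for keratins, 1.03 to 1.17 for solute carriers and 0.801 to 1.12 for transcription factors. Without replicate 3 the secretory share was 9.60% and keratins (2.03) stood above secretory products (1.69) in spread, as they did with no filter. Without replicate 8 the keratin ratio was lowest. Transcription factors, at 0.974 as reported, also crossed 1 with the highest transcript per gene (1.04), with median-ratio scaling (1.10), on the log2(FPKM + 1) scale (1.06) and without replicate 5 (1.12). The order of the 9 classes by share changed in 1 of the settings run, without replicate 8, where ER-Golgi traffic stood above keratins.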

Other observations

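Tight junction genes, which seal the luminal epithelium, were concentrated in few members. Of 32 claudin genes, 8 had a mean of at least 1 FPKM and 13 were listed at 0 in all libraries. Below Cldn4, Cldn3 was at 538, 771 and 997 FPKM, Cldn10 at 359, 419 and 490 FPKM and Cldn7 at 186, 225 and 271 FPKM, all highest in replicate 8. Of the 8 claudin genes averaging at least 1 FPKM, 5 were highest there, or 62.5%, beside 51.5% of all genes of that level. The claudin family held 0.508%, 0.562% and 0.710% of total FPKM. Cdh1, the E-cadherin gene, was at 74.7 to 107 FPKM, lowest in replicate 3 and highest in replicate 8.

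Of 368 zinc finger protein genes with a Zfp symbol, 191 had a mean of at least 1 FPKM and 1 had a mean of at least 100 FPKM. That gene was Zfp36, which encodes an mRNA decay factor induced by stress, at 490, 404 and 374 FPKM.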
